A study of Mus musculus with 4 samples.

Results

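Maturing neutrophils in which no Mki67 or Top2a transcript was found were examined among Td+ cells sorted from the endosteal bone marrow of mice. They were chosen by 5 measured values, each applied to single cells that had 200 to 6000 genes detected and at most 5% of their UMIs (unique molecular identifiers, each standing for 1 captured transcript) from mitochondrial genes. S100a8 and S100a9 together had to reach 300 per 10000 UMIs, Retnlg had to have at least 1 UMI, Mki67 and Top2a had to have 0 UMIs, and the primary granule genes Elane, Mpo, Prtn3 and Ctsg together had to stay below 50 per 10000. The rule found 1464 cells among the 18631 that passed the filter in the 1M, 3M and 16M libraries, out of 24084 in the whole series of 4 libraries. It took 917 of 8308 cells at 1M (11.04%, exact Clopper-Pearson 95% interval 10.4 to 11.7), 298 of 4180 at 3M (7.13%, 6.37 to 7.95) and 249 of 6143 at 16M (4.05%, 3.57 to 4.58). In the 1.5M library the same rule took 12 of 5453 cells (0.220%, 0.114 to 0.384). This lay below each of the shares above, so the share did not fall steadily with age over the whole series. All intervals given here cover counting error only, because each age was 1 library and no difference between ages could be tested against a spread between animals.

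Neutrophils are made in the bone marrow from dividing progenitors that fill their granules in a fixed order. Primary granule proteins such as myeloperoxidase and elastase are made first, by promyelocytes. The secondary or specific granule proteins, among them lactoferrin (Ltf), the cathelicidin precursor (Camp) and neutrophilic granule protein (Ngp), follow in myelocytes and metamyelocytes as division stops. The collagenase Mmp8 and the gelatinase Mmp9 follow late, and mature cells finally carry chemokine and cytokine receptors and leave the marrow in response to CXCR2 ligands, while CXCR4 holds them there.

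The mice were male Col2-Cre Rosa26 lsl-tdTomato animals (Col2:Td), labelled as strain B6SJL/F1, in which Cre driven by the Col2 promoter switches on the red reporter Td in chondrocytes and mesenchymal bone cells and their progeny. Endosteal cells were freed by protease digestion of the opened metaphyses of long bones after the central marrow had been flushed out, and were sorted as Td+ cells, or as the top 1% of Td signal where no peak was seen. All groups were untreated and differed by age: 1 month (1M, 2 mice pooled), 1.5 months (1.5M, 3 mice), 3 months (3M, 3 mice) and 16 months (16M, 3 mice). The gate was set on the reporter and not on blood cell surface markers, and differences in the share of neutrophils cannot be told apart from how each sort was gated.

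The deposited tables differed in depth. The lowest UMI total of any cell was 4859 at 1M, 2451 at 3M and 500 at 16M, and the lowest among the maturing neutrophils was 4865, 2493 and 715. Median UMIs in these cells were 7421 at 1M, 4546.5 at 3M and 5885 at 16M, with medians of 1611, 1044.5 and 1327 genes. The 16M table listed 31054 genes and the others 27999, of which 26600 were common and were used here. The 16M library also shared only 1 or 2 cell barcodes with each other library, against 30 to 61 among the other 3, and no barcode was shared between maturing neutrophils. How the 16M library was made therefore cannot be told apart from age. As a measure of free RNA, stromal reference cells of the same libraries were used (1973, 2484 and 4974 cells, chosen for at least 100 per 10000 UMIs from Col1a1, Col1a2, Col3a1, Sparc, Cxcl12 and Col2a1 and for 0 UMIs of Ptprc, the CD45 gene of blood cells), in which neutrophil transcripts should be absent.

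The promoters of the 3 specific granule genes used below to order the cells are shown because these genes set the order. The sequences are from RefSeq (GRCm38.p6), 5′ to 3′, begin 250 bases before each RefSeq start and stop before the first base of the GENCODE gene model. Capitals mark matches on either strand to TTGCNNAA, letters often bound by C/EBP factors such as C/EBPε, which is needed for specific granules. The stretches were chr9:111019042-111019270 on the plus strand for Ltf, chr9:109849618-109849706 on the minus strand for Camp and chr9:110419558-110419746 on the plus strand for Ngp.
Ltf: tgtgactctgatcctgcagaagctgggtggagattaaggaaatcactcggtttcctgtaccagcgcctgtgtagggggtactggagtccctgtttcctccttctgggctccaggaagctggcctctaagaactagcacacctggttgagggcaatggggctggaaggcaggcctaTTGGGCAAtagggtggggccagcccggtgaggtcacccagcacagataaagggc
Camp: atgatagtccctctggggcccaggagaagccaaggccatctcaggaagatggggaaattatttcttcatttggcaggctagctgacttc
Ngp: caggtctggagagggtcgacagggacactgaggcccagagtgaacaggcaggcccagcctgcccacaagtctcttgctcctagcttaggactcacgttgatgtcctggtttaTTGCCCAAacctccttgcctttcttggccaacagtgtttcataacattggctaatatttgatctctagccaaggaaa
Ltf and Ngp each held 1 match and Camp held 0 in these 229, 189 and 89 bases. Among 32851 promoters of the same length and position, 9.02%, 7.76% and 3.68% held at least 1, so the letters are uncommon but not rare, and a match is a description of the sequence only.

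The label of the cells was checked against 5 markers, of which the rule had used S100a8, S100a9 and Retnlg. S100a8 (chr3:90668978-90670035) and S100a9 (chr3:90692632-90695721) encode the subunits of calprotectin, a calcium-binding protein that fills the cytosol of neutrophils. S100a8 stood at 112541, 170653 and 116252 CPM (UMIs per 1000000 in the summed cells) at 1M, 3M and 16M, and S100a9 at 120901, 102230 and 156168 CPM. The order of the pair thus differed between libraries, with S100a8 above S100a9 at 3M only. The 10 most abundant genes, led by this pair, Ngp and Camp, held 41.6%, 46.0% and 41.7% of all UMIs.

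Retnlg (chr16:48872621-48874496), a resistin-like secreted protein of late neutrophils, stood at 17317 CPM at 1M, 10214 at 3M and 17225 at 16M. It was far lower in the stromal reference cells, at 635, 47.0 and 6.30 CPM. The free RNA mattered for the rule all the same, because 99.1% of stromal cells at 1M also held at least 1 Retnlg UMI, against 25.0% at 3M and 6.59% at 16M. At 1M the Retnlg criterion therefore kept 99.9% of the cells rich in S100a8 and S100a9, while it kept 84.3% at 3M and 87.7% at 16M.

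The 2 markers outside the rule were present. Ly6g (chr15:75155240-75159126), the antigen of the neutrophil antibody 1A8, stood at 998, 752 and 586 CPM at 1M, 3M and 16M, against 27.7, 3.43 and 0.217 CPM in stromal cells. After each cell was thinned to 2000 UMIs, 78.0%, 67.1% and 57.0% of maturing neutrophils held a Ly6g UMI, against 5.22%, 0.684% and 0.0213% of stromal cells. Without thinning the shares were 95.1%, 84.9% and 75.1% against 23.9%, 2.17% and 0.241%. Mmp8 (chr9:7558456-7568485) stood at 1051, 741 and 1710 CPM against 24.5, 1.44 and 0.615 CPM. Ly6g was thus lowest at 16M and Mmp8 highest there, and both stood far above the stromal cells of each library.

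The criterion on primary granules left cells at the level of free RNA. Elane, neutrophil elastase, stood at 241, 39.3 and 5.0 CPM in the maturing neutrophils of 1M, 3M and 16M and at 272, 64.7 and 2.5 CPM in stromal cells. The threshold fell in a gap: the highest cell inside it held 37.7, 7.33 and 6.11 per 10000, and the lowest outside held 218 at 1M and 66.3 at 3M, with none outside at 16M. The S100 threshold lay far below most cells, whose medians were 2645, 3157 and 2992 per 10000. The cells nearest to it stood at 328, 322 and 318 inside and at 280.4, 294 and 267 outside. Retnlg was at exactly 1 UMI in 1, 21 and 4 of the chosen cells. Just outside, 2, 18 and 12 cells held 0 UMIs of Retnlg. The criterion on division left out 301 cells at 1M, 22 at 3M and 11 at 16M that held exactly 1 UMI of Mki67 and Top2a. When every cell was first thinned to 2000 UMIs, the share at 1M was 17.7% in place of 11.04%, while 3M gave 7.80% and 16M 4.08%.

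Maturing cells made up a different part of the neutrophil cells in each library. Cells past the S100 threshold numbered 2660 at 1M, 592 at 3M and 350 at 16M, or 32.0%, 14.2% and 5.70% of all cells. The maturing cells were 34.5% of them at 1M (32.7 to 36.3), 50.3% at 3M (46.2 to 54.4) and 71.1% at 16M (66.1 to 75.8). These shares depend on depth through the criterion on division, and the thinning above raised the share of maturing cells among all cells at 1M but not at 3M or 16M beyond their intervals. Cycling cells, with at least 1 UMI of Mki67 or Top2a and primary granule genes below the same limit, were 1356, 205 and 76 cells, or 51.0%, 34.6% and 21.7%. Cells rich in primary granule transcripts were 385, 71 and 13, or 14.5%, 12.0% and 3.71%. Depth moved with these classes, since cycling cells had median UMIs of 15090.5, 9449 and 18289.5, and the shares within the S100 cells were not computed at 1 fixed depth.

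Against their cycling neighbours the maturing cells carried more late transcripts, though cells split by UMIs of 2 genes are also split by depth and no test was made. Retnlg stood at 6996, 2024 and 882 CPM in cycling cells of 1M, 3M and 16M, below the maturing cells in each library. The rule required Retnlg of the maturing cells only, so this difference is partly set by the choice of cells. Mmp8 stood at 376, 112 and 64.7 CPM in cycling cells, and Ly6g at 501, 319 and 151 CPM. The reverse held for Chil3, the chitinase-like protein Ym1 made by granule-forming cells, with 9941, 10305 and 8194 CPM in cycling and 5383, 4882 and 2047 CPM in maturing cells. Cebpe, which encodes C/EBPε, likewise stood at 396, 458 and 426 CPM in cycling and 205, 187 and 93.3 CPM in maturing cells. Summed cell cycle genes outside the rule stood at 3636, 3277 and 2266 CPM in maturing and 10331, 12611 and 10778 CPM in cycling cells. In stromal cells the same sum was 2768, 1725 and 1241 CPM.

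Some of the chosen barcodes carried transcripts of another cell type. Marker lists of 11 other lineages were summed in each cell, and 112 maturing neutrophils at 1M (12.2%), 54 at 3M (18.1%) and 34 at 16M (13.7%) held at least 50 per 10000 from 1 of them. The mesenchymal list accounted for 78, 47 and 32 of these and the macrophage list for 18, 3 and 0, while the basophil, eosinophil, T and NK cell and megakaryocyte lists accounted for 0. Their median S100a8 and S100a9 level was 914, 1174 and 1347 per 10000, against 2703, 3305 and 3216 in the rest. Their mitochondrial share was 1.70%, 1.90% and 2.49%, against 0.516%, 0.531% and 0.514%. No doublet caller was run and how many of these barcodes held more than 1 cell was not tested, so the order described next used the other 805, 244 and 215 cells.

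The cells were ordered by the sum of Ltf (chr9:111019271-111042767), Camp (chr9:109847379-109849617) and Ngp (chr9:110419747-110423012) and cut into 5 equal groups within each library, after thinning to 2000 UMIs. From the highest to the lowest group, Ltf went from 14671 to 4385 CPM at 1M, from 15704 to 4979 at 3M and from 14679 to 0 at 16M. Camp went from 66519 to 14568, from 75388 to 22760 and from 61036 to 36.6 CPM. Ngp went from 79640 to 21016, from 86561 to 24833 and from 55369 to 61.0 CPM. These 3 genes set the order and their fall is no finding. Of 1350 genes that reached 50 CPM in the highest or the lowest group of every library, 164 (12.1%) were at least 2-fold higher in the lowest group in all 3 libraries and 27 (2.00%) at least 2-fold lower. The median log2 ratio of all 1350 was 0.39, so changes are to be read against a general shift toward the lowest group. With all members kept, 1512 genes were compared, and 262 (17.3%) were higher and 50 (3.31%) lower, but the lowest group then also held mesenchymal transcripts at 12768 CPM at 1M and 15644 CPM at 3M. Depth moved with the order at 16M, where the median was 9655 UMIs in the highest and 3025 in the lowest group of all members, and little at 1M (7280.0 and 7494) and 3M (4881 and 4843).

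Other products of early granule formation went down with the order. Chil3 went from 10401 to 1419 CPM at 1M, from 8082 to 1063 at 3M and from 4750 to 0 at 16M. Fcnb, the marrow neutrophil protein ficolin B, went from 497 to 52.8, from 398 to 20.8 and from 286 to 0 CPM. Lcn2, lipocalin 2, which starves bacteria of iron, went from 22705 to 9183, from 14551 to 6427 and from 21726 to 2683 CPM. Lcn2 thus fell less steeply than the 3 ordering genes and remained among the abundant transcripts of the lowest group. Of 8 tested genes of the specific granule list, 4 were lower and 0 higher, and these were Lcn2 and the 3 ordering genes.

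The transcription factors moved in opposite directions. Cebpe went from 394 to 109 CPM at 1M, from 357 to 115 at 3M and from 155 to 12.2 at 16M. Cebpb, a C/EBP factor of emergency granulopoiesis, went the other way, from 367 to 1307, from 459 to 2156 and from 536 to 4866 CPM. Junb, an AP-1 subunit, followed Cebpb, from 103 to 624, from 102 to 510 and from 202 to 2427 CPM. In the list of granulocyte transcription factors these were the 2 higher and the 1 lower of 7 tested.

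**Figure D1:**
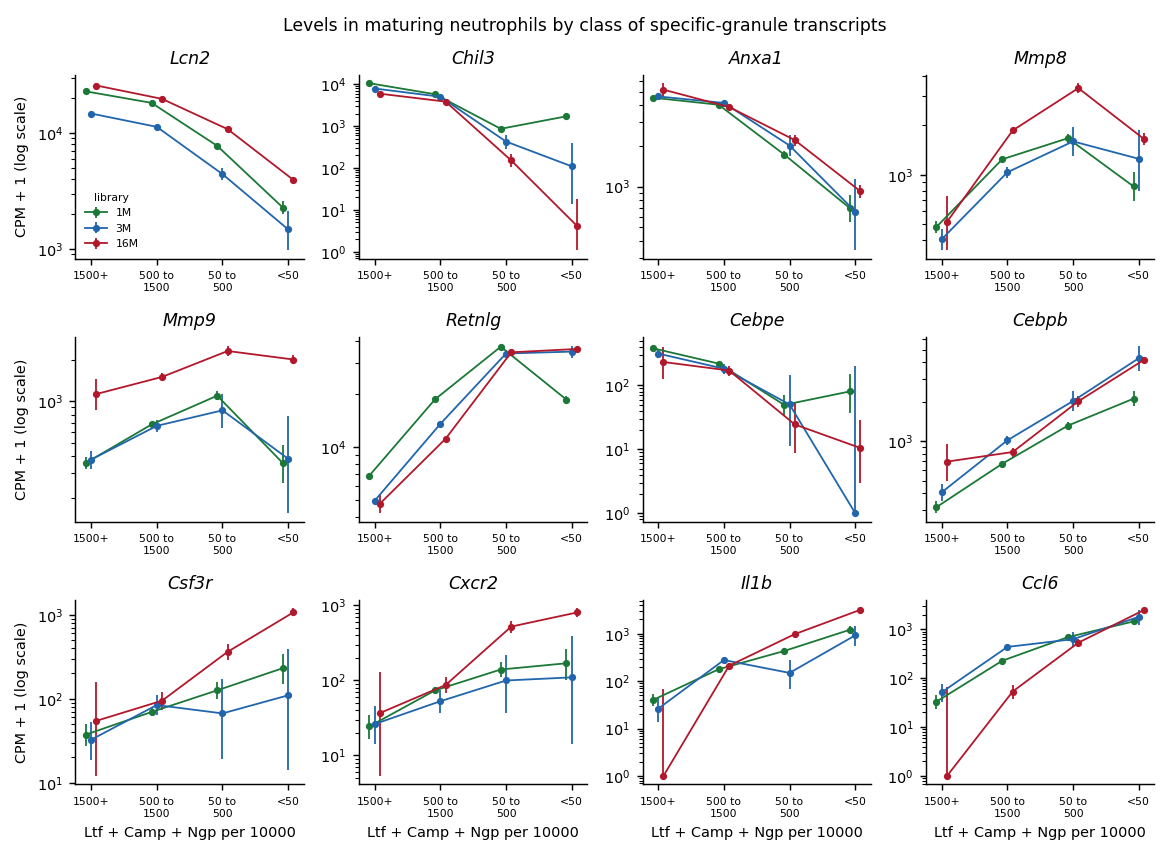
Levels in CPM (log axis) of genes of early and late maturation, in maturing neutrophils without other lineages, by class of summed Ltf, Camp and Ngp, with 1 line for each library and bars for exact Poisson 95% intervals (1 was added to each level). Lcn2 and Anxa1 stand lower and Cebpb, Il1b and Ccl6 higher toward the class with fewest specific granule transcripts, Chil3 and Cebpe at 1M turn up in that class, and Csf3r reaches 1068 CPM there at 16M.

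Cytokine and chemokine genes were among the 164 genes higher in the lowest group. Il1b, interleukin 1β, went from 40.4 to 488 CPM at 1M, from 20.4 to 438 at 3M and from 35.7 to 3915 at 16M. Ccl6, a chemokine of myeloid cells, went from 31.1 to 795, from 10.2 to 875 and from 23.8 to 2610 CPM. Cxcl2, a CXCR2 ligand made by activated neutrophils, went from 40.4 to 335, from 112 to 3167 and from 369 to 6122 CPM. Of 5 tested genes of the cytokine and chemokine list, 4 were higher (Il1b, Il1rn, Cxcl2 and Ccl6), with a median log2 ratio of 3.93. In the lowest group the 16M level exceeded that of both other libraries for each of the 3 genes named first. The lowest groups do not lie at a like position, since Ltf, Camp and Ngp fell much further at 16M. In cells below 50 per 10000 from these genes, the summed list stood at 4150 CPM at 1M (15 cells). There it stood at 18245 CPM at 3M (5 cells) and 13600 at 16M (90 cells), so 16M was not highest.

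Receptors and adhesion molecules of cells ready to leave the marrow followed. Cxcr2, the receptor for CXCL1 and CXCL2, went from 21.7 to 140 CPM at 1M, from 20.4 to 104 at 3M and from 47.6 to 1098 at 16M. The other gene past the limit among 8 tested of the marrow retention and exit list was Selplg, the selectin ligand PSGL-1. Il1r2, the decoy receptor for interleukin 1, went from 332 to 835, from 265 to 1083 and from 262 to 2098 CPM. Clec4d, a C-type lectin receptor for mycobacterial glycolipid, went from 18.6 to 432, from 10.2 to 354 and from 59.5 to 1134 CPM. It was 1 of 3 higher among 9 tested phagocyte receptors, with Fpr1 and Tlr2, and Il1r2, Csf2rb and Ifngr1 were the 3 higher of 6 cytokine receptors.

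Of 6 tested genes of the chromatin release and proteases list, Slpi and Wfdc17 were higher and Serpinb1a, also a protease inhibitor, was lower in the lowest group, with a median log2 ratio of -0.07. Serpinb1a went from 795 to 267, from 714 to 219 and from 583 to 0 CPM. Slpi, the secretory leukocyte protease inhibitor, went from 472 to 1739, from 786 to 2281 and from 798 to 3159 CPM at 1M, 3M and 16M. Stfa2l1, a stefin A cathepsin inhibitor, went from 121 to 525, from 10.2 to 239.6 and from 0 to 1037 CPM. All 3 tested stefin A genes were higher, but these are near-identical copies among which counts are uncertain. Of 4 tested S100 genes S100a6 alone was higher, and it went from 1183 to 6106, from 1643 to 4792 and from 2607 to 10049 CPM. The rule's own gene Retnlg also went up, from 8016 to 35562, from 4571 to 30917 and from 5405 to 29159 CPM.

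Lists of other functions described the rest of the order. All 4 tested genes of the NF-κB feedback list (Nfkbia, Tnfaip2, Zfp36 and Ier3) and both tested genes of cell death and survival (Mcl1, which keeps neutrophils alive, and its antagonist Bcl2l11) were higher. So were 4 of 9 immediate early and heat shock genes, 2 of 6 interferon-stimulated genes (Ifitm1 and Ifitm2) and 2 of 4 antigen presentation genes (H2-K1 and H2-D1). In either direction 0 of 6 NADPH oxidase genes, 0 of 10 actin and movement genes and 0 of 9 glycolytic genes passed 2-fold in all 3 libraries. Their median log2 ratios were -0.11, 0.32 and -0.07. Lists this short cannot set 0 apart from the 12.1% higher and 2.00% lower of all 1350 genes. With all members kept, Cybb of the NADPH oxidase list was lower in all 3 libraries. Cybb, the catalytic subunit of the oxidase, went from 1019 to 463 CPM at 1M, from 1010.2 to 531 at 3M and from 2214 to 219.5 at 16M, while Ncf1, a cytosolic subunit, went from 304 to 351, from 286 to 271 and from 476 to 427 CPM. The mesenchymal list gave 0 of 4, with a median log2 ratio of 0.69. Cells with at least 50 per 10000 from that list had been set aside beforehand, so this count is no finding. With all members kept, 3 of 4 were higher (Col1a1, Col1a2 and Cxcl12). Of the monocyte list 1 of 2 tested genes was higher, Csf1r, the receptor of macrophage colony-stimulating factor, which went from 3.1 to 59.0, from 10.2 to 93.8 and from 11.9 to 73.2 CPM. From the class of 1500 per 10000 or more to that below 50, the summed monocyte list went from 1423 to 2917 CPM at 1M, from 1015.4 to 1634 at 3M and from 714.6 to 337.9 at 16M. The summed T and NK list went from 47.7 to 621 CPM at 1M, from 33.6 to 0 at 3M and from 17.9 to 0 at 16M, and the summed B-lineage list from 103 to 594, from 2.1 to 218 and from 17.9 to 22.1 CPM. Between the same classes the summed mesenchymal list went from 1322 to 1525 CPM at 1M, from 942 to 2287 at 3M and from 750 to 2163 at 16M. These sums are over the cells left once members with other lineages were set aside. Transcripts of other lineages below that limit thus still moved with the order in each library, and their part in the counts was not tested. The 10 genes with the largest rise were Ccl6, Atf3, Il1b, Wfdc17, Pla2g7, Stfa2l1, Clec4d, Gm5483, Ccrl2 and Cytip, and those with the largest fall, beside the 3 ordering genes, were Chil3, Fcnb, Orm1, Serpinb1a, Ldhc, Plscr1 and Zmpste24.

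The summed gelatinase granule list was highest between the ends of the order in all 3 libraries, though not beyond the intervals at 3M. From the class of 1500 per 10000 or more to that below 50 it stood at 1002, 2221, 3332 and 1614 CPM at 1M, at 881, 1945, 2703 and 2124 at 3M and at 1894, 3779, 6389.8 and 4877 at 16M. At 3M the class of 50 to 500 held 15 cells (2305 to 3150 CPM) and that below 50 held 5 (1510 to 2904). Mmp8 went from 658 to 1811 CPM at 1M and from 459 to 1698 at 3M, but was 1262 in the highest and 1305 in the lowest group at 16M, with 3805 CPM in the middle group. By class of Ltf, Camp and Ngp, Mmp8 at 16M was 518 CPM at 1500 per 10000 or more, 1864 at 500 to 1500, 3371 at 50 to 500 and 1652 below 50. Mmp9 (chr2:164940780-164955850) went from 444 to 1028, from 429 to 917 and from 1155 to 2037 CPM. Neither gene passed the 2-fold limit in all 3 libraries, and of 4 tested genes of the gelatinase granule list only Arg2 did. Whether the product of each listed gene lies in gelatinase granules was not tested. Csf3r (chr4:126024550-126044440), the G-CSF receptor, was also not past the limit in all libraries, yet at 16M stood at 53.9 CPM in the class of 1500 or more and at 1068 CPM below 50.

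The libraries filled this order differently. Median Ltf, Camp and Ngp together were 1172 per 10000 UMIs at 1M, 1380 at 3M and 218 at 16M, against 34.4, 4.57 and 0 in stromal cells. Cells below 50 per 10000 were 15 of 805 at 1M (1.86%, 1.05 to 3.05), 5 of 244 at 3M (2.05%, 0.669 to 4.72) and 90 of 215 at 16M (41.9%, 35.2 to 48.8). The 16M interval lay far above the other 2. Median S100a8 and S100a9 in the low cells was 941 per 10000 at 1M (15 cells), 1019.7 at 3M (5 cells) and 2525 at 16M. The other classes at 16M had medians of 3379 to 3625. The rule chose cells on these genes, so the difference is a description only. The summed specific granule list stood at 9605 CPM in the 90 low cells of 16M and at 4851 CPM in the stromal cells of that library.

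**Figure D2:**
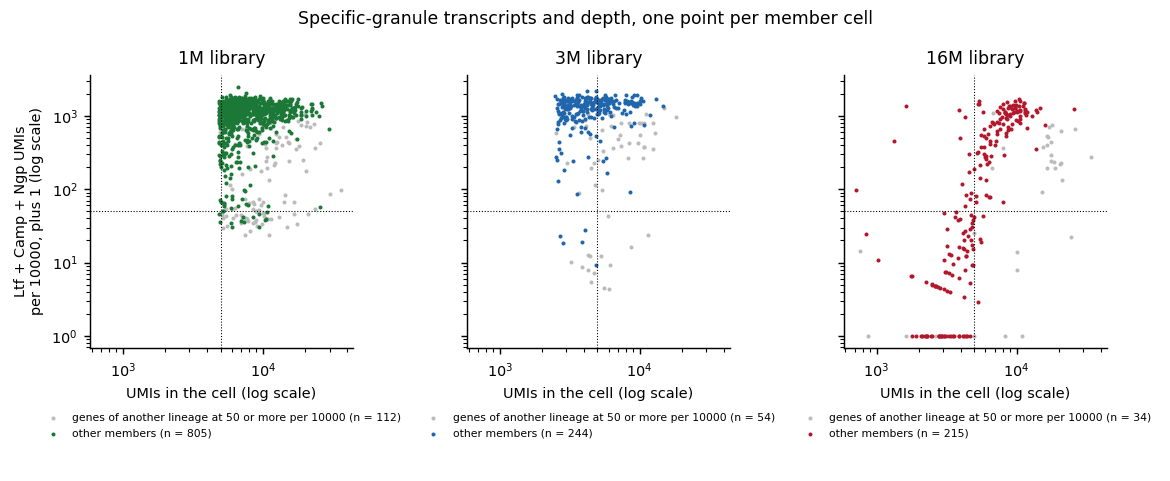
Summed Ltf, Camp and Ngp per 10000 UMIs (y axis) against total UMIs of the cell (log x axis) for each maturing neutrophil, in 1 panel for each of 1M, 3M and 16M (1 was added to each sum, and grey points are cells with another lineage), with lines at 50 per 10000 and at 5000 UMIs. At 16M 86 of the 90 cells below 50 that lack another lineage have fewer than 5000 UMIs, a range that holds few cells at 1M.

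Depth moved closely with this share. At 16M the cells below 50 had a median of 3411 UMIs, and the medians of the next classes were 5060.5, 6087, 7981, 9492 and 10082 UMIs in order of rising specific granule transcripts. Of the 90, 86 had fewer than 5000 UMIs, a range that the 1M table, with its lowest cell at 4859 UMIs, barely holds. Among cells of at least 5000 UMIs the shares were 13 of 774 at 1M (1.68%), 0 of 91 at 3M (upper limit 3.97%) and 4 of 115 at 16M (3.48%, 0.956 to 8.67), and these intervals overlapped. The excess of low cells at 16M was therefore not seen at that depth.

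Between 2500 and 5000 UMIs the libraries still differed. There the shares were 2 of 31 at 1M (6.45%, 0.791 to 21.4), 5 of 152 at 3M (3.29%, 1.08 to 7.51) and 70 of 81 at 16M (86.4%, 77.0 to 93.0), and the interval at 16M did not overlap the others. The 1M cells of this range all had at least 4865 UMIs. Median UMIs in the range were 4910 at 1M, 3533.5 at 3M and 3899 at 16M, so 1M was not compared at a like depth. Below 2500 UMIs, 16M had 16 of 19 cells (84.2%), 3M had 1 cell and 1M none. The 3M table reached down to 2451 UMIs and held 152 cells between 2500 and 5000 UMIs, 5 of them low. The part of the lowest UMI total of each table in the share over all cells was not tested.

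**Figure D3:**
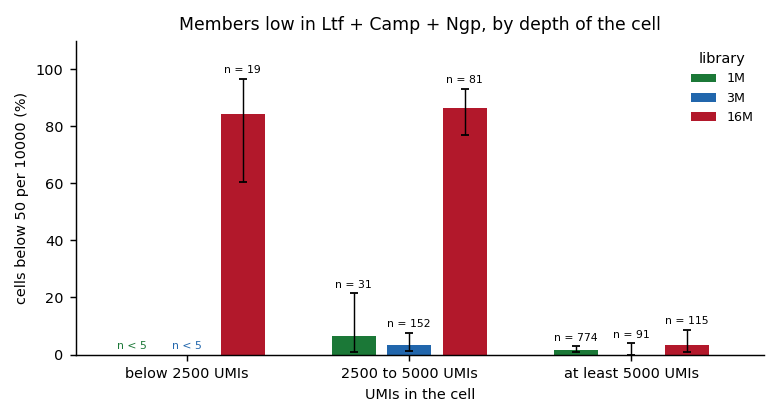
Share of maturing neutrophils without other lineages that hold fewer than 50 per 10000 UMIs from Ltf, Camp and Ngp (y axis, percent), by library and by range of UMIs per cell, with exact binomial 95% intervals. At 2500 to 5000 UMIs 16M stands at 86.4% against 6.45% and 3.29%, and at 5000 UMIs or more the 3 intervals overlap. The 1M cells of the range of 2500 to 5000 all had at least 4865 UMIs.

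Several transcripts of mature neutrophils were found in most of the low cells of 16M and others in fewer. After thinning to 2000 UMIs, 78 of 84 held Ccl6 (92.9%), 75 held Il1b (89.3%), 75 held Mmp8 (89.3%), 73 held Csf3r (86.9%) and 58 held Cxcr2 (69.0%). Ly6g was held by 37 (44.0%), Stfa2l1 by 33 (39.3%), Cd177 by 31 (36.9%) and Wfdc17 by 19 (22.6%). In 16M cells with 500 to 1500 per 10000, 12.3% held Il1b, 12.3% Cxcr2, 79.0% Ly6g, 93.8% Cd177 and 8.64% Stfa2l1, and 0 held Wfdc17. Ly6g and Cd177 were thus found in a smaller share of the low cells than of that class. In stromal cells of 16M Il1b stood at 0.688 CPM, Ccl6 at 1.54 CPM and Cxcr2 at 0.109 CPM, so these genes were near absent from the stromal cells there. After the same thinning 0.128% of stromal cells of 16M held Il1b and 0 of 4692 held Cxcr2.

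Between ages, a gene was counted when its CPM differed at least 2-fold and reached 50 in the higher library with Poisson intervals apart. At 3M against 1M, 87 of 1833 genes were higher (4.75%) and 83 lower (4.53%). At 16M against 1M, 547 of 2269 were higher (24.1%) and 286 lower (12.6%). At 16M against 3M, 568 of 2179 were higher (26.1%) and 192 lower (8.81%). These 3 contrasts share libraries and are not independent. Many of the same genes differed in stromal cells of the same libraries in the same direction: 36 and 18 of those at 3M against 1M, 298 and 157 at 16M against 1M, and 221 and 101 at 16M against 3M. For these genes a difference of the neutrophils cannot be told apart from one of the whole library.

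The leading genes of these contrasts were mostly of that kind or from other cells. The highest ratios at 3M against 1M included the mesenchymal genes Cxcl12, Cytl1, Cyp1b1, Wisp2, Serping1 and Esm1, and the lowest the B-cell genes Ly6d, Cd79a, Cd79b and Vpreb3. The highest at 16M included Lars2, Gm42418 and Mia2 against both other libraries, and the lowest Tonsl, Atp5o and the cartilage gene Acan. Gm42418, a predicted gene that overlaps ribosomal RNA sequence, stood at 154, 91.8 and 17145 CPM in maturing neutrophils at 1M, 3M and 16M and at 274, 188 and 17702 CPM in stromal cells. It thus differed by library rather than by cell type.

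Since the libraries filled the specific granule order differently, the ages were also compared among cells with 500 to 1500 per 10000 from Ltf, Camp and Ngp and no other lineage. These were 567 cells at 1M, 135 at 3M and 82 at 16M, with median UMIs of 7335, 4079 and 8824. At 3M against 1M, 44 of 1636 genes were higher (2.69%) and 122 lower (7.46%). At 16M against 1M, 210 of 1824 were higher (11.5%) and 241 lower (13.2%), and at 16M against 3M, 282 of 1719 were higher (16.4%) and 159 lower (9.25%). Of the genes counted in all maturing cells, 169 of 547 higher (30.9%) and 169 of 286 lower (59.1%) at 16M against 1M were also counted here. Fewer genes were thus higher at 16M at like position, where fewer cells were compared.

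Cxcr2, Csf3r, Il1b and Mmp8 were less far apart at like position. Among all maturing cells Cxcr2 stood at 69.1, 45.0 and 276 CPM at 1M, 3M and 16M, Csf3r at 70.4, 60.8 and 313 CPM, and Il1b at 198, 222 and 890 CPM. At like position Cxcr2 was 72.7, 51.8 and 85.9 CPM, Csf3r 68.6, 83.2 and 93.9 CPM, and Il1b 177, 278 and 211 CPM, and none differed 2-fold. Mmp8 was 1244, 1038 and 1864 CPM, also within 2-fold. The gelatinase list went from 5 of 5 genes higher at 16M against 3M in all maturing cells (Mmp8, Mmp9, Adam8, Slc11a1 and Arg2) to 1 of 4 at like position.

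**Figure D4:**
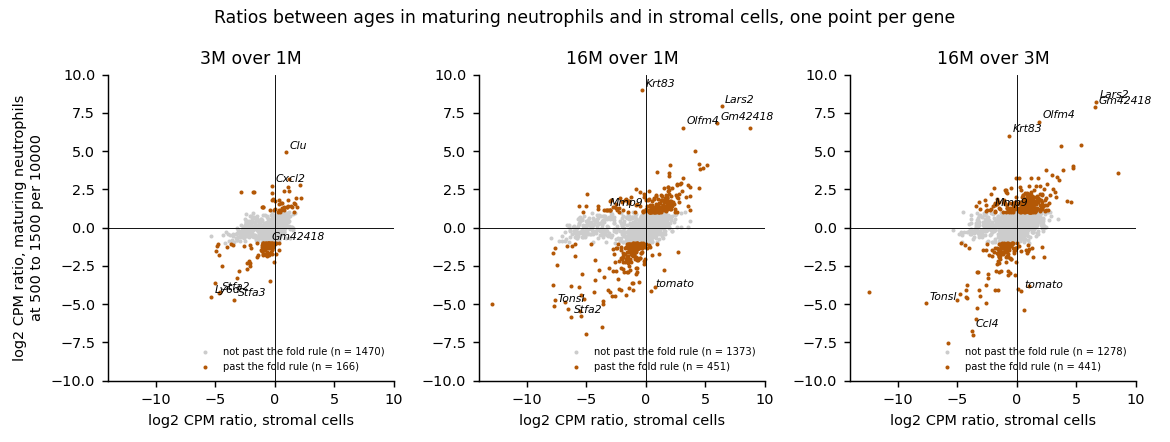
Log2 ratio of CPM between ages in maturing neutrophils with 500 to 1500 per 10000 from Ltf, Camp and Ngp (y axis) against the same ratio in stromal cells (x axis), with 1 point for each gene tested and 1 panel for each contrast. Lars2 and Gm42418 are high at 16M on both axes, while Krt83 and Mmp9 are higher at 16M in the neutrophils alone and tomato is lower there.

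Other genes of mature neutrophils differed 2-fold at like position too. Mmp9 at like position stood at 677 CPM at 1M (654 to 699.9), 661 at 3M (599 to 727) and 1497 at 16M (1411 to 1588), against 28.3, 12.3 and 2.79 in stromal cells. It was 2.21-fold higher at 16M than at 1M and 2.27-fold higher than at 3M. Itgam, the CD11b chain of the receptor Mac-1, stood at 166, 209 and 436 CPM, 2.63-fold and 2.09-fold higher at 16M. Cxcr4, the receptor that holds neutrophils in the marrow, stood at 26.1, 92.6 and 96.6 CPM and was higher at 3M and at 16M than at 1M. Tlr2, a receptor for bacterial lipoproteins, stood at 51.3, 56.5 and 138 CPM and was higher at 16M than in both other libraries. Of the transcription factors, Klf2, Klf6 and Mxd1 were also higher at 16M than at 1M, with Mxd1 at 299, 333 and 725 CPM. The summed list that holds them also rose in stromal cells, at 2512, 3377 and 7087 CPM at 1M, 3M and 16M. Over all maturing cells that list stood at 2532, 3337 and 5827 CPM, so its rise was not particular to neutrophils. In the specific granule list the median log2 ratio was 0.03 for 3M against 1M and 0.03 for 16M against 1M, as the choice of cells by 3 of its genes requires, and Olfm4 was the 1 gene higher at 16M.

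Stefin A genes were lower at both later ages at like position. Stfa2, a cathepsin inhibitor of neutrophils, stood at 154 CPM at 1M, 7.85 at 3M and 2.68 at 16M at like position, and BC100530, of the same cluster, at 866, 301 and 158 CPM. All 6 tested stefin A genes were at least 2-fold lower at 3M than at 1M and at 16M than at 1M, with median log2 ratios of -1.40 and -3.10, against a median over all tested genes of -0.22 and -0.21 (a gene with 0 UMIs in a library was set to 3 counts there). Their levels in stromal cells at 1M were far lower, 4.32 CPM for Stfa2 and 25.0 CPM for BC100530. Over all members 4 of 6 stefin A genes were lower at 16M against 1M (Stfa1, Stfa2, Stfa3 and BC100530), and 3 of 6 without members that hold other lineages. In the classes further along the order their summed level at 16M was near or above that at 1M, with 2470.0 CPM at 1M and 2835 at 16M from 50 to 500 per 10000, and 3378 and 3326 CPM below 50. Asprv1, a retroviral-like aspartic protease, followed with 298, 51.8 and 36.2 CPM.

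At 3M against 1M 3 chemokine genes were higher, as were 4 of 9 immediate early and heat shock genes (Fosb, Jun, Egr1 and Dusp1), while Hsp90aa1 was lower and the median log2 ratio of that list was 0.04. Cxcl2 at like position was 192, 1280 and 737 CPM at 1M, 3M and 16M, Ccl3 56.4, 279 and 81.9 CPM, and Ccl4 29.1, 144 and 1.34 CPM. These 3 were the higher of 7 tested cytokine genes at 3M against 1M. Jun stood at 94.1, 309 and 505 CPM and Egr1 at 14.5, 75.4 and 102 CPM. In stromal cells Jun was 1238, 1271 and 4678 CPM and Egr1 303, 534 and 2232 CPM, so both genes stood highest at 16M in both kinds of cell.

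NF-κB feedback and survival genes stood highest at 16M. Nfkbiz was 28.5, 87.9 and 199 CPM at like position and Tnfaip3, the ubiquitin-editing brake on NF-κB, 5.30, 7.85 and 79.2 CPM. With Zfp36 and Ier3 these made 4 of 6 tested genes of the list higher at 16M against either other library, and all 4 were also higher in stromal cells of 16M. Mcl1 stood at 112, 243 and 657 CPM, against 97.2, 122 and 286 CPM in stromal cells. Bcl2l11, which acts in the opposite direction, was higher as well.

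Antigen presentation genes were lower at 16M. Cd74, the invariant chain of MHC class II, stood at 359.6, 523 and 4.03 CPM and H2-Aa at 126, 152 and 0 CPM at like position. Cd74 was also lower in stromal cells of 16M, at 107, 106 and 8.22 CPM. B2m, the class I light chain, was 1224, 1404 and 511 CPM in neutrophils but 1421, 1966 and 1816 CPM in stromal cells. Of 8 tested genes of the list 5 were lower at 16M against 1M. In stromal cells Cd74 and H2-Ab1 were lower as well and B2m stayed within 2-fold, while H2-Aa, at 45.3 CPM at 1M and 3.69 at 16M, and H2-Eb1, at 29.0 and 9.19 CPM, lay below the minimum of 50 CPM there. Primary granule genes, which lay near the stromal level, were lower at 3M and at 16M against 1M in 5 of 5 cases. The rule had capped Elane, Mpo, Prtn3 and Ctsg of this list, so this is no finding about the cells.

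A pair of genes, Olfm4 and Krt83, stood far higher in the maturing cells of 16M than in those of 1M and 3M. Olfm4 (chr14:79984081-80023139), the specific granule protein olfactomedin 4, known to be made by a subset of neutrophils, stood at 6.11 CPM at 1M (4.12 to 8.72), 4.71 at 3M (0.971 to 13.8) and 566 at 16M (513 to 623) at like position. Among the 805, 244 and 215 cells without other lineages, 23, 5 and 26 held at least 1 Olfm4 UMI. At least 5 UMIs were held by 0, 0 and 21 cells, the last being 9.77% (6.15 to 14.5) of the 16M cells, and the positive cells of 16M had a median of 21 UMIs and a maximum of 50, against a maximum of 3 at 1M. Cycling cells of 16M showed the same split, with 9 of 76 positive (11.8%) at a median of 51 UMIs. Stromal cells of 16M held it in 22 of 4974 cells and never above 1 UMI, so the transcripts of 16M lay in a minority of neutrophil cells.

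Krt83 (chr15:101485130-101491512), a hair keratin, had 0 UMIs in the maturing cells of 1M and 3M and stood at 186 CPM in those of 16M. It was held by 77 of 215 cells without other lineages (35.8%, 29.4 to 42.6) and by 42 of 76 cycling cells (55.3%), but by 6 of 4974 stromal cells. Against the limit that 3 counts set, it was at least 499-fold higher at 16M than at 1M and at least 98.0-fold higher than at 3M. Unlike Gm42418 it was thus found in neutrophil cells and hardly in stromal cells of 16M, and age cannot be told apart from how that library was made.

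The reporter transcript also differed. The tomato transcript stood at 4046 CPM at 1M, 4040.1 at 3M and 925 at 16M in maturing neutrophils, and at 3238, 3489 and 4502 CPM in stromal cells. Without other lineages the median was 39.9, 38.8 and 2.55 per 10000, and at least 5 UMIs were held by 804 of 805, 236 of 244 and 9 of 215 cells. In cycling cells it was 2793, 2256 and 430 CPM. At 1M and 3M the neutrophils thus held as much reporter transcript as the stromal cells, and at 16M far less. Whether this RNA was made in the neutrophils was not tested.

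**Figure D5:**
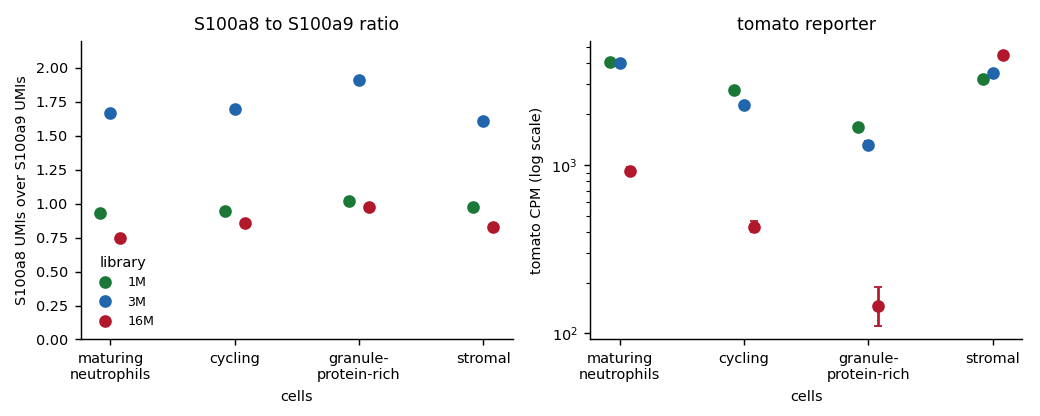
Left, ratio of S100a8 to S100a9 UMIs in maturing, cycling, primary granule-rich and stromal cells of each library, as points for the summed cells. Right, tomato CPM (log axis) in the same cells with exact Poisson 95% intervals. The ratio at 3M stands above the other libraries in each kind of cell, at 1.67 in maturing cells at 3M against 0.931 and 0.744, and tomato is lowest in the neutrophil cells of 16M.

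The S100a8 to S100a9 ratio differed by library in neutrophil and stromal cells. In maturing neutrophils it was 0.931 at 1M, 1.67 at 3M and 0.744 at 16M, and across the 5 groups of all members it stayed within 0.919 to 0.942, 1.61 to 1.69 and 0.707 to 0.761. Cycling cells gave 0.943, 1.70 and 0.856, and cells rich in primary granule transcripts 1.02, 1.91 and 0.972. The S100 transcripts found in stromal cells gave 0.975, 1.61 and 0.825. In B-lineage cells it was 0.981, 1.87 and 1.09, where the interval at 16M, from 40 cells, was 0.773 to 1.53. The median over single maturing cells was 0.925, 1.65 and 0.730, so the difference was spread over the cells.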

How the data were processed

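Single-cell UMI counts were used as deposited by the authors, who, per the submitters' processing notes, used Cell Ranger 3.0.2, Seurat 2 and mm10. Each of the 4 libraries is a table of counts of genes by barcodes, not normalized. The members and gene lists were chosen with earlier results of these data known. Cells were filtered and chosen as stated above, UMIs were summed over cells of a library and given as CPM of all UMIs of those cells, with exact Poisson intervals, and shares with exact Clopper-Pearson intervals. With 1 library per age no test between ages was possible. Cells were thinned without replacement to 2000 UMIs for the order and for shares of cells, which left out 12 members of 16M. Ratios were taken on 26600 gene symbols common to the tables. Calls needed a 2-fold ratio and 50 CPM, and between ages intervals apart. The steps were tested on simulated data. Named genes were the markers, the genes of the rule, list members, the 10 most abundant genes, the 10 largest and smallest ratios of each comparison and the reporter. Alternatives changed the limits, thinning, minimum level, denominator and cells used. Gene positions are from GENCODE M21 (GRCm38). Cebpd, Pclaf and Trac were not analysed here. Python 3.11.15, numpy 2.4.6 and scipy 1.17.1 were used.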

Additional observations from a re-analysis of the deposited data

Results flagged for a closer look

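The 1.5M library was left out of the comparisons, yet 12 of its 5453 cells met the same rule. That is 0.220% (0.114 to 0.384), above the 0.0550% that a count of 0 would allow, and it was flagged as a signal in a library outside the comparisons. The share was far below the 11.04% of 1M, the library nearest in age. Cells past the S100 threshold were 0.532% of all cells at 1.5M, against 32.0% at 1M. With such a gap between libraries of near age, the shares of single libraries cannot be read as a trend with age. The cause of the gap was not tested. The 12 cells had a median of 6350.5 UMIs, of 2608 per 10000 UMIs from S100a8 and S100a9 and of 1356 per 10000 from Ltf, Camp and Ngp. Ly6g was found in 12 of them and Mmp8 in 8, and 3 held transcripts of another lineage at 50 per 10000 or more. Their S100a8 to S100a9 ratio was 1.55. No group had enough libraries to look for single libraries far from the others.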

How the results depend on the processing

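Of 161 values under other settings, 102 stayed within the counting interval or within 1.5 times the reported count, and 59 moved. Each age is 1 library, so depth, sort and library preparation cannot be told apart from age. No paired analysis was possible because each age has 1 library. For the shares of maturing neutrophils, a limit of 10% mitochondrial UMIs gave 3.04% at 16M, thinning to 2000 UMIs before the rule gave 17.7% at 1M, leaving out members with other lineages gave 9.69%, 5.84% and 3.50% at 1M, 3M and 16M, and cells of at least 5000 UMIs gave 4.89% at 3M and 2.72% at 16M.

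Counts of genes between ages followed the minimum level. Higher and lower at 3M against 1M, then 16M against 1M, then 16M against 3M, a minimum of 20 CPM gave 226, 214, 1191, 511, 1167 and 316, one of 100 CPM gave 49, 45, 258, 166, 266 and 107, and no minimum gave 512, 471, 2169, 965, 1452 and 428. Without the 10 most abundant genes in the denominator, 202 were higher at 3M against 1M, 869 higher at 16M against 1M and 353 lower at 16M against 3M. Thinning gave 131 lower at 3M and 464 lower at 16M against 1M. At 3M against 1M, 43 were higher without other lineages and 145 among cells of at least 5000 UMIs. At like position 44, 210 and 282 were higher in the 3 contrasts. Leaving out genes alike in stromal cells left 51 higher at 3M against 1M, 249 higher and 129 lower at 16M against 1M, and 347 and 91 at 16M against 3M.

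Along the order, 164 higher and 27 lower without other lineages compare with 262 and 50 for all members. A minimum of 20 CPM gave 609 higher, no minimum gave 1409 and 98, and 3 groups in place of 5 gave 28 lower. Leaving out 1 library at a time gave 334 to 620 higher and 69 to 81 lower, the highest counts being without 16M (620 higher) and without 1M (81 lower, with 465 higher), since a gene then had to pass in fewer libraries. The share of cells below 50 per 10000 from Ltf, Camp and Ngp was 5.45% at 1M and 6.38% at 3M with all members, 6.45% at 1M and 86.4% at 16M for 2500 to 5000 UMIs, and 0% at 3M and 3.48% at 16M for at least 5000 UMIs. With a limit of 20 per 10000 it was 0% at 1M and 33.5% at 16M, and with 200 it was 5.09% and 49.3%. The settings added after seeing the data were the 5000 UMI limit, the window of 2500 to 5000 UMIs, like position, genes not alike in stromal cells, leaving out 1 library, and the limits of 20 and 200. The cause of these shifts was not tested beyond the smaller numbers of genes, cells or libraries that the settings themselves entail.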
